A study of Mus musculus with 6 samples.

Results

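The interleukin-6 (IL-6) family of cytokines, its receptors and the SOCS proteins that switch its signal off were examined in 1G11 cells, a line of mouse microvascular endothelial cells. The members were the ligands Il6, Il11, Lif and Clcf1, the receptor chains Il6ra, Il6st, Lifr and Osmr, and the inhibitors Socs1 and Socs3. They were found by name in the description or transcript identifier of the array's non-control spots. This gave 12 of the 55681 probes, on 13 spots, for 10 of 36943 genes.

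The lines compared, each on 3 arrays from independent experiments, were 1G11-SOD3, which overexpresses the secreted antioxidant enzyme SOD3, and its control 1G11-mock. Cells of both lines, labeled as strain C57BL/6NCrLBR, had spent 6 h in conditioned medium of N202.1A cells, a mouse mammary cancer line, and the comparison holds no array without it. The comparison asks which transcripts differ between SOD3-overexpressing and control endothelium under tumor-derived stimuli. The 6 single-color arrays lay on 1 slide, 1G11-mock in its row 2 and 1G11-SOD3 in its row 1, so line and slide row cannot be told apart. The labels and methods do not say whether either line is a single clone.

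Cytokines of this family signal through gp130, the shared receptor chain encoded by Il6st. IL-6 and IL-11 bring gp130 in through their own binding chains, whereas LIF uses a complex of gp130 with the LIF receptor. That complex also carries the signal of the Clcf1 product, and OSMR pairs with gp130 for oncostatin M. The receptors activate JAK kinases and the transcription factor STAT3, which turns on acute-phase genes and Socs3, and SOCS1 and SOCS3 then inhibit the kinases. Endothelial cells are a known source of IL-6 and LIF during inflammation, and NF-κB and AP-1 are the classical activators of the Il6 gene.

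Promoter sequence was available for 9 of the 10 genes (11 windows, RefSeq, GRCm38.p6, from 250 bases before to 50 bases after a start), all but Clcf1. Both strands were searched for the STAT pattern TTCNNNGAA, the AP-1 pattern TGANTCA and the NF-κB site, which does not overlap either pattern in the stretches shown. The NF-κB and STAT matches that lie before a start are shown, because NF-κB activates Il6 and STAT3 activates Socs3. The AP-1 matches are given as counts. Each reads 5′ to 3′ on the strand of the gene, with the match in capitals.
Il6, NF-κB site 44 to 35 bases before the start (chr5:30013045-30013104, plus strand): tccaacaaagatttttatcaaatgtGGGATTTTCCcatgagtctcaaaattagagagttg
Lif, NF-κB site 178 to 169 bases before the start (chr11:4257365-4257424, plus strand): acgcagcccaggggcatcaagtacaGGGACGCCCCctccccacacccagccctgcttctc
Socs3, STAT pattern 154 to 146 bases before the start (chr11:117969487-117969545, minus strand): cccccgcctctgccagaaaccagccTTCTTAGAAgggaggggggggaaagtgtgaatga
The STAT pattern was found in 1 member (Socs3) and in 8.30% of all 32851 promoter windows. The AP-1 pattern was found in 4 members (Il6, Il11, Lif and Osmr) and in 7.81% of all windows, and the NF-κB site in 2 (Il6 and Lif) and in 8.46%. Such a match describes the letters in the window and not a site in use.

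On each array 34.2% to 43.8% of the 59305 non-control spots were well above background by the scanner software's own criterion, and none was saturated. Replicate arrays correlated across bright probes with r of 0.942 to 0.980 (probes are not independent replicates). Intensity also depended on place. In a central block of 128 rows by 55 columns of the 384 by 164 grid, called here the middle of the array, copies of 128 probes printed 10 times read lower than their copies elsewhere by medians of -0.83, -1.27 and -2.62 (log2) on 1G11-mock arrays 1 to 3, against 0.22, -0.22 and 0.13 on the 1G11-SOD3 arrays. Values after a position adjustment, a smooth surface taken off each array, are therefore given beside many of the results that it moved, though not beside all. Sod3 itself, whose probe lies in the middle, read 13.61, 12.66 and 9.86 in 1G11-mock and 16.37, 16.30 and 16.26 in 1G11-SOD3 cells (log2 difference 4.27, SE 0.70, limma adjusted p = 0.00786). With the position adjustment the difference was 2.73, and without 1G11-SOD3 replicate 3 it was 4.32 at an adjusted p of 0.0511. Of 12 endothelial markers, Kdr, Vwf, Eng and Esam were well above background on all 6 arrays and Cdh5, Tek, Tie1, Emcn and Erg on none, where Vwf was lower (-1.65) and Egfl7 higher (1.82, and 0.97 at an adjusted p of 0.0798 with the position adjustment, and not called once 1G11-mock replicate 2 or 3 or 1G11-SOD3 replicate 1 or 2 was left out) in 1G11-SOD3, with mean list levels of 8.66 to 8.93 across 1G11-mock arrays and 8.66 to 9.03 across 1G11-SOD3 arrays. The mean level of 6 fibroblast or mural markers ran from 10.08 to 10.54 across 1G11-mock arrays and from 11.54 to 12.12 across 1G11-SOD3 arrays, with Col1a1, Acta2 and Pdgfrb passing the test and Rgs5 above background on no array. The part of these markers in the results below was not tested, and bulk RNA does not tell fewer cells making a transcript from less RNA per cell.

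The receptor chains Il6ra, Il6st and Osmr were measured on every array, whereas among the ligands only Clcf1 was. Of the 12 probes, 5 were well above background on every array, namely those of Clcf1, Il6ra, Il6st, Osmr and Socs3. Il11, Socs1 and 1 of 3 Lifr probes were so on all 1G11-SOD3 arrays and on some 1G11-mock arrays. Il6, Lif and the other Lifr probes were above background on at most 1 of the 6 arrays. Of the 13 spots 12 lie outside the middle, and that of 1 Lifr probe, which lies within it, is described apart.

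No member passed the test. With a threshold of over 2-fold and of 0.05 for the adjusted p (limma, Benjamini-Hochberg over all probes), 0 of 12 probes differed, against a background of 2.93% of all probes (1.87% higher and 1.06% lower) and of 5.82% of probes well above background on all arrays. At an unadjusted p under 0.05 there were 2 (Socs1 and a Lifr probe, both higher in 1G11-SOD3), where 14.4% of all probes were past that level in either direction and 7.17% as higher. The fitted log2 differences ran from -0.55 to 0.79 with a median of 0.12, beside -0.03 over all probes. Before position adjustment the groups of 3 arrays did not overlap for 5 probes (41.7%), 4 higher and 1 lower in 1G11-SOD3. Of all probes 20.6% were so separated, 10.3% in each direction. Among the 5 probes measured on every array, 4 had a 95% interval of the difference within 2-fold either way, and that of Osmr reached slightly past it. With the position adjustment that of Osmr lay within 2-fold, and those of Il6ra and Socs3 reached just past it. Before position adjustment, intervals of some dimmer probes lay within 2-fold as well (7 of all 12 probes). With values near background these are not read as such a limit.

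**Figure D1:**
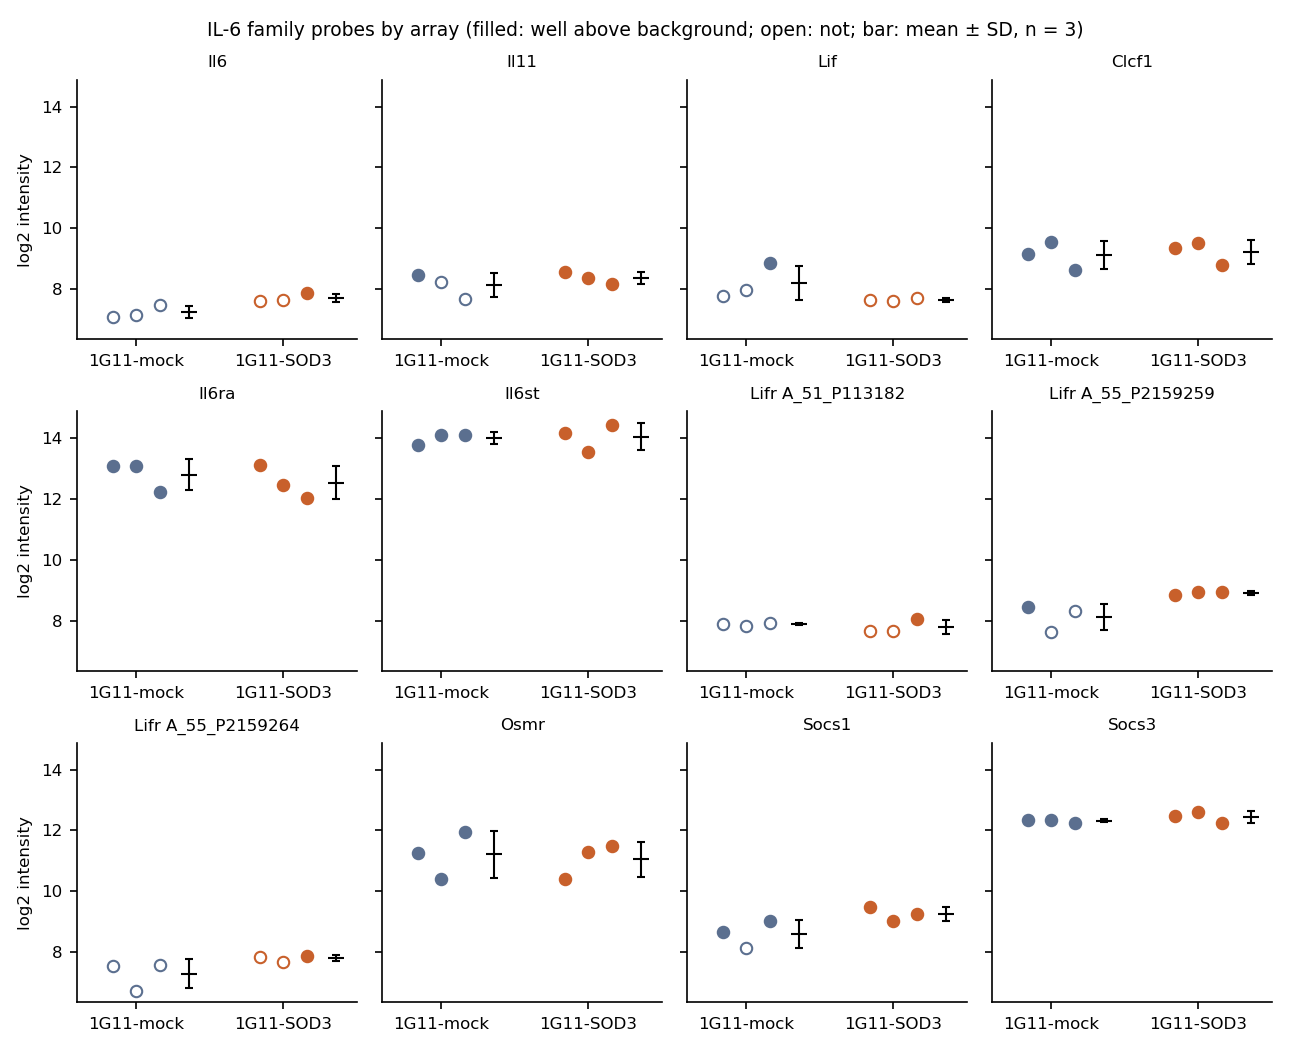
Log2 intensity (quantile normalized) of each IL-6 family probe on the 3 1G11-mock and the 3 1G11-SOD3 arrays, with filled points well above background, open points not, and bars for the mean ± SD (n = 3). Il6st, Il6ra and Socs3 are bright and overlap between the lines, whereas Il6 and 2 of the 3 Lifr probes have mostly open points.

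Among the ligands, Il6 was close to background in both lines. Its probe (chr5:30346367-30346426 in the array annotation, which names no build) read 7.09, 7.14 and 7.47 on the 1G11-mock arrays and 7.61, 7.63 and 7.86 on the 1G11-SOD3 arrays (log2 intensity, mean of 2 spots). Every 1G11-SOD3 array was above every 1G11-mock array, by a gap of 0.15, and both spots of the probe gave a like difference (0.48 and 0.45). The adjusted p was 0.375. After position adjustment the arrays read 7.15, 7.08 and 7.23 in 1G11-mock and 7.60, 7.70 and 8.09 in 1G11-SOD3 (adjusted p = 0.135). However, only 1 of the 6 arrays, 1G11-SOD3 replicate 3, was well above background, and no fold change can be set against the floor of the dim line. Thus no lower Il6 level was measured in the 1G11-SOD3 cells, and the level itself was at the limit of these arrays.

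Lif, which maintains mouse embryonic stem cells and also acts in inflammation, was the single member with 1G11-SOD3 below 1G11-mock on all arrays before position adjustment. The probe (chr11:4172032-4172091) read 7.77, 7.97 and 8.85 in 1G11-mock and 7.63, 7.60 and 7.71 in 1G11-SOD3 cells. One array, 1G11-mock replicate 3, was the only one well above background and stood well over the others, and the nearest arrays of the 2 lines were 0.06 apart. The line means were 8.20 and 7.65 (adjusted p = 0.421), and no bound is put on the fold change because that array carries it. Without 1G11-mock replicate 3 the log2 difference was -0.24 in place of -0.55 (adjusted p = 0.678). After position adjustment the arrays read 7.85, 8.17 and 8.23 in 1G11-mock and 7.57, 7.43 and 7.93 in 1G11-SOD3. The groups then overlapped (-0.44, adjusted p = 0.305), and 1G11-mock replicate 3 no longer stood well over the others. With the scanner software's processed signal, which carries the software's own spatial detrending, Lif passed the test at -1.31 (adjusted p = 0.0443), but there 20.0% of all probes passed and 17.8% were lower.

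Il11, a stromal cytokine with roles in platelet formation and fibrosis, overlapped between the lines. It read 8.46, 8.22 and 7.68 in 1G11-mock and 8.57, 8.35 and 8.17 in 1G11-SOD3 cells, above background on 1 and on 3 arrays, respectively (chr7:4724847-4724906). The log2 difference was 0.24 (SE 0.26, adjusted p = 0.731). Clcf1, a neurotrophic and B-cell-stimulating cytokine, was the only ligand measured on every array. It read 9.16, 9.55 and 8.63 in 1G11-mock and 9.36, 9.53 and 8.78 in 1G11-SOD3 cells, with a difference of 0.11 (SE 0.29, 95% interval -0.54 to 0.75, adjusted p = 0.910). In both lines replicate 3 was the lowest and replicate 2 the highest. The position adjustment moved the Clcf1 difference to -0.10 (adjusted p = 0.869).

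Il6st, the signal-transducing chain that the whole family shares, did not differ beyond its spread. It read 13.77, 14.11 and 14.11 in 1G11-mock and 14.15, 13.56 and 14.42 in 1G11-SOD3 cells (chr13:113296586-113296645). The 1G11-SOD3 arrays spanned the whole range of the 1G11-mock arrays. The difference was 0.05 (SE 0.27, 95% interval -0.54 to 0.63, adjusted p = 0.959), and -0.24 with the position adjustment (adjusted p = 0.617). Il6ra, the chain that binds IL-6, read 13.08, 13.09 and 12.21 in 1G11-mock and 13.10, 12.47 and 12.04 in 1G11-SOD3 cells, and the groups again overlapped. Its difference was -0.26 (95% interval -0.98 to 0.46, adjusted p = 0.779). Osmr, the oncostatin M receptor chain, varied by more than 1 log2 unit among arrays of one line, with 11.25, 10.41 and 11.96 in 1G11-mock and 10.40, 11.29 and 11.48 in 1G11-SOD3 cells. The difference of -0.15 (95% interval -1.02 to 0.71, adjusted p = 0.904) was well within that spread. Before position adjustment, differences of the 5 probes measured on all arrays, taken one by one, ran from -0.26 to 0.13. None had separate groups, and the lowest adjusted p was 0.779.

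Lifr, the chain that binds LIF and joins gp130, was read by 3 probes of 60 bases, of which 1 was well above background on all arrays of a line. Their first 30 bases show that they sample different sequence.
A_55_P2159259 (chr15:7147319-7147378, transcript variant 1): catagatgatgtaaatagcctaagacactg
A_55_P2159264 (chr15:7135072-7135131, transcript variant 2): taaaaacttggaaatgtatccaggcctaac
A_51_P113182 (chr15:7141150-7141209, transcript variant 1, in the middle of the array): agaacaaaccaaatgactaaccaggtcacc
Probe A_55_P2159259 read 8.44, 7.62 and 8.30 in 1G11-mock and 8.85, 8.95 and 8.93 in 1G11-SOD3 cells. All 1G11-SOD3 arrays were well above background and above all 1G11-mock arrays, of which 1 was above background, with a gap of 0.41. The log2 difference was 0.79 (SE 0.26, 95% interval 0.22 to 1.35), with the lowest p of all members (0.0105) and an adjusted p of 0.158. The position adjustment gave 0.97 (adjusted p = 0.0711). Probe A_55_P2159264, of the other variant, read 7.53, 6.73 and 7.58 in 1G11-mock and 7.83, 7.69 and 7.87 in 1G11-SOD3 cells. The lines were again apart in the same direction, but only 1G11-SOD3 replicate 3 was above background and the adjusted p was 0.419. After position adjustment this probe read 7.59, 6.46 and 7.83 in 1G11-mock and 7.82, 7.47 and 7.93 in 1G11-SOD3. The groups then overlapped (adjusted p = 0.495).

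The spot of A_51_P113182, the only member in the middle of the array, read 7.89, 7.84 and 7.92 in 1G11-mock and 7.66, 7.66 and 8.07 in 1G11-SOD3 cells, with only 1G11-SOD3 replicate 3 above background. The groups overlapped (adjusted p = 0.905). After position adjustment it read 7.75, 8.18 and 8.88 in 1G11-mock and 6.96, 7.58 and 7.86 in 1G11-SOD3 cells, and the adjusted p was 0.202. With both lines at the floor, no fold change is given for this probe, and it does not settle whether Lifr differed.

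**Figure D2:**
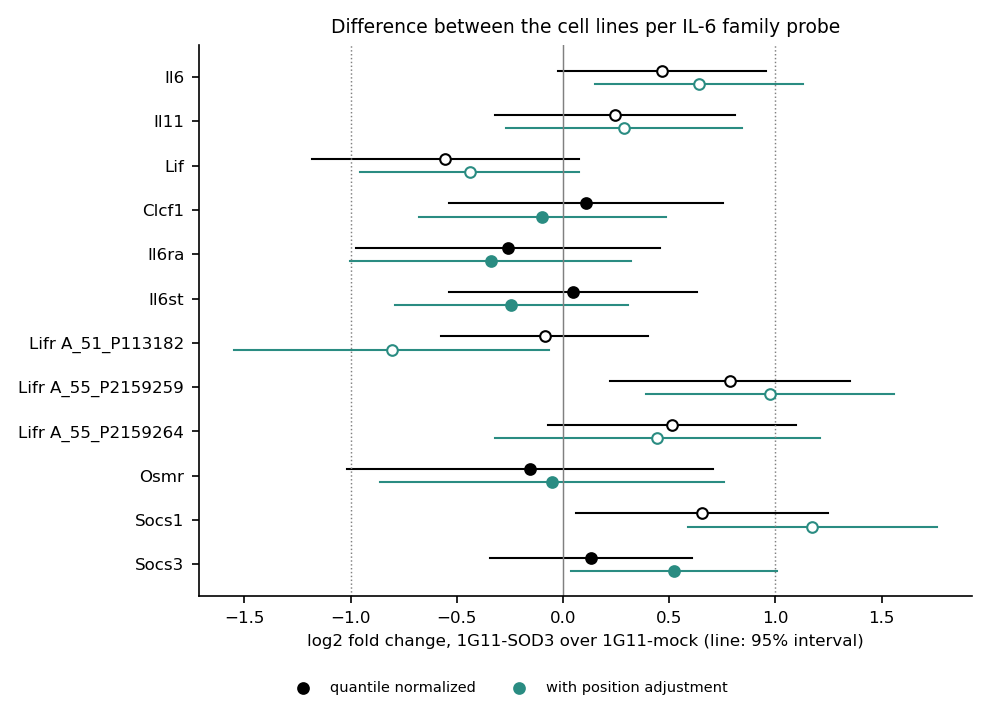
Log2 difference between the lines (1G11-SOD3 over 1G11-mock) for each IL-6 family probe with its 95% interval, quantile normalized (black) and with the position adjustment (green), where filled points are probes well above background on all 6 arrays and dotted lines mark 2-fold. The filled black points lie between -0.26 and 0.13, and Socs1 moves from 0.65 to 1.17 with the adjustment.

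Socs1, which inhibits JAK kinases after interferon and IL-6 family signals, was, besides Lif, a member whose call depended on the processing. The probe (chr16:10783951-10784010) read 8.65, 8.12 and 9.01 in 1G11-mock and 9.48, 9.02 and 9.25 in 1G11-SOD3 cells, above background on 2 and on 3 arrays. The groups were apart by 0.005, which is far below the SD of either line. The log2 difference was 0.65 (SE 0.27, 95% interval 0.06 to 1.25, adjusted p = 0.290). Before adjustment the limma p was 0.0332. After position adjustment the arrays read 8.74, 8.14 and 7.97 against 9.70, 9.20 and 9.48, and Socs1 passed the test at 1.17 (adjusted p = 0.0378), where 3.67% of all probes were called and 1.05% were higher. The processed signal gave 1.34 (adjusted p = 0.0245), where 2.16% of all probes were called higher. The adjusting surface differed between the lines by 0.08 at the Socs1 spot against a median of 0.33 over all spots. Before position adjustment, where Socs1 was not called with all 6 arrays either, leaving out any 1 array gave 0.43 to 0.89 with no call. Arrays were not left out of the position-adjusted values or the processed signal, so how those calls depend on single arrays was not tested.

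Socs3, the STAT3-induced inhibitor that binds gp130 and JAK, was bright, and its lines overlapped before position adjustment but not after it. It read 12.34, 12.34 and 12.26 in 1G11-mock and 12.48, 12.62 and 12.24 in 1G11-SOD3 cells (chr11:117827480-117827539). The lowest and the highest array both belonged to 1G11-SOD3. The difference was 0.13 (SE 0.22, 95% interval -0.34 to 0.61, adjusted p = 0.838). The surface difference at this spot was 0.07. After position adjustment the arrays read 12.39, 12.13 and 11.89 in 1G11-mock and 12.62, 12.73 and 12.63 in 1G11-SOD3, and the groups were apart. The position-adjusted difference was 0.52 (95% interval 0.04 to 1.01, adjusted p = 0.206). Hence the member with the STAT pattern in its promoter did not pass in either form.

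**Figure D3:**
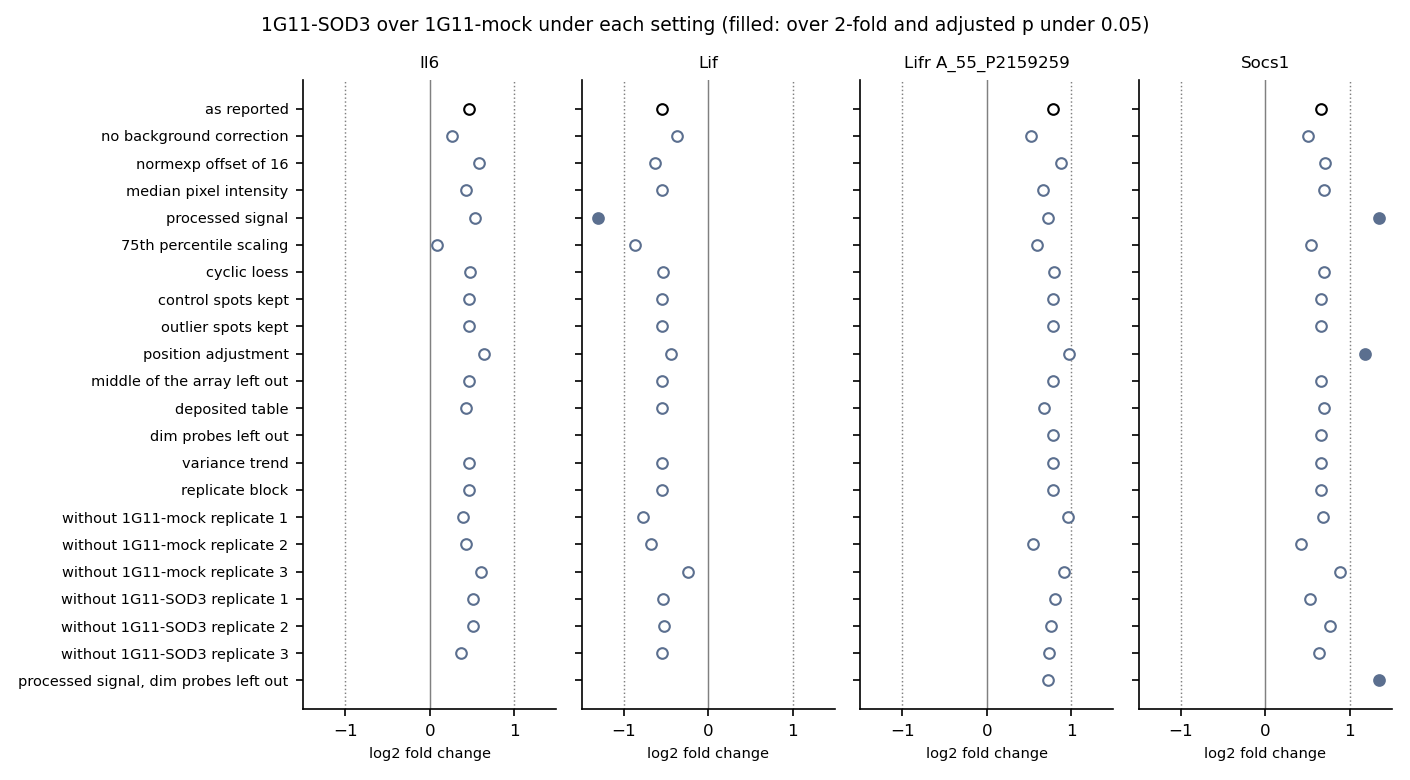
Log2 difference (1G11-SOD3 over 1G11-mock) of Il6, Lif, 1 Lifr probe and Socs1 as reported (black) and under each alternative setting, where filled points passed the test and no point means that the setting removed the probe. Socs1 is filled in 3 settings at 1.17 to 1.34 and Lif in 1 at -1.31, and Il6 and Lifr in none.

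Other genes of the pathway were placed beside the members in 4 lists (57 genes, each by its brightest probe). Of these, 4 were higher, 7 lower and 46 did not pass. Of all genes 3.40% were called, 2.13% higher and 1.27% lower, and of probes well above background on all arrays 5.82%. The lists were chosen with earlier results of these data known. They also hold brighter genes, with 36 of 57 well above background on all arrays, against 13170 of all 36943 genes. The counts are therefore not read as an excess of calls in the pathway. The lists hold 7 genes whose probe lies in the middle of the array, and with the position adjustment the counts were 4 higher and 4 lower, with 3.93% of all genes called in either direction.

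Among 11 further ligands and receptors (median difference 0.03, beside -0.04 over all genes), 6 were above background on no array. Ctf1, which encodes cardiotrophin-1, another ligand of the LIF receptor and gp130, rose 2.92-fold (8.74, 8.71 and 8.77 against 10.58, 10.23 and 10.05, adjusted p = 0.00425). Its 10 copies, all outside the middle, gave differences of 1.16 to 1.90, and it passed the test in every setting run. Cntf, a neurotrophic ligand that also signals through gp130 and the LIF receptor, fell by 1.08 (log2, adjusted p = 0.0437), but the position adjustment gave -0.45 (adjusted p = 0.247). With 1 array left out at a time the adjusted p of Cntf ran from 0.0478 to 0.166, and the call held only without 1G11-mock replicate 2. A second Cntf probe, well above background on 3 of the 6 arrays, differed by -0.11 (adjusted p = 0.867). Osm, the ligand of Osmr, was above background on no array. Il11ra1, the IL-11 binding chain, read between 13.71 and 14.29 with a difference of 0.30 (adjusted p = 0.594). With the position adjustment this difference was 0.65 (adjusted p = 0.117). Signal from the near-identical paralog Il11ra2 was not separated from that of Il11ra1.

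Of 10 JAK-STAT transducers 9 were bright on all arrays, and Tyk2 alone passed, lower by 1.18 (log2, adjusted p = 0.0445), with -0.92 after position adjustment (adjusted p = 0.102). With 1 array left out at a time, its adjusted p was 0.0201 without 1G11-mock replicate 1 and up to 0.177, short of the test, without each of the others. Jak1 differed by -0.51 (adjusted p = 0.352) and Jak2 by -0.03. With the position adjustment Jak1 differed by -0.15 (adjusted p = 0.736) and Jak2 by -0.55 (adjusted p = 0.311). Stat3, the main transcription factor of the pathway, read 14.32, 14.39 and 14.02 in 1G11-mock and 14.51, 14.60 and 14.55 in 1G11-SOD3 cells. The lines were apart for this probe, but the difference was 0.31 (adjusted p = 0.581) and its 10 copies ranged from -0.06 to 0.62. A dimmer Stat3 probe, also well above background on all arrays, overlapped between the lines (0.08, adjusted p = 0.938).

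Among 12 other inhibitors and receptor sheddases, Cish and Socs7, both of the SOCS family, passed in opposite directions. Cish, a STAT5-induced inhibitor, fell from 10.25, 10.01 and 10.26 in 1G11-mock to 8.42, 8.91 and 8.68 in 1G11-SOD3 cells (2.84-fold lower, SE 0.23 on the log2 scale, adjusted p = 0.0051). It lay outside the middle, with -1.21 after position adjustment (adjusted p = 0.0191), and passed in every setting run. Socs7 rose by 3.98 (log2, adjusted p = 0.0051), but its spot lies in the middle, and the position adjustment gave 1.55 (adjusted p = 0.044). Of the 3 1G11-mock arrays 1 measured it above background. They read 10.16, 7.24 and 7.85, and the difference was 3.43 without replicate 2 and 4.87 without replicate 1 of that line. The phosphatase gene Ptpn6, chosen after its values were seen, was above background on no 1G11-mock array and on all 3 1G11-SOD3 arrays, so that it was at least 1.13-fold higher in 1G11-SOD3 (adjusted p = 0.057), and it passed with the position adjustment (adjusted p = 0.0294).

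Known STAT3 target genes did not move as one. Of 24, 2 were higher and 4 lower, with a median of -0.25. The higher genes, the cell cycle gene Ccnd1 (2.69) and the survival gene Birc5 (2.19), both lie in the middle of the array, where the position adjustment gave 0.78 (adjusted p = 0.272) and 1.20 (adjusted p = 0.0232). The lower genes were the acute-phase genes Saa3 (-3.86, adjusted p = 0.048) and Serpina3n, the adhesion molecule gene Icam1 (-1.99, adjusted p = 0.0322) and the survival gene Bcl2l1 (-1.06, adjusted p = 0.0398). Serpina3n read 9.21, 8.84 and 9.65 in 1G11-mock and was above background on no 1G11-SOD3 array, so that it was at least 2.84-fold lower (adjusted p = 0.00271). Saa3 read 10.69, 11.05 and 15.25 in 1G11-mock and 7.90, 8.46 and 9.06 in 1G11-SOD3 cells. Its highest array, 1G11-mock replicate 3, is the one on which Lif was above background and on which Icam1 was highest (10.26, 11.14 and 12.38 on 1G11-mock arrays 1 to 3). After position adjustment Lif no longer stood out on that array (7.85, 8.17 and 8.23 on 1G11-mock arrays 1 to 3). Without that array Saa3 differed by -2.43 (adjusted p = 0.00871) and Icam1 by -1.45 (adjusted p = 0.0524). With the position adjustment Saa3, Icam1 and Bcl2l1 had adjusted p of 0.0613, 0.0538 and 0.0838, respectively, and did not pass. Bcl3, whose spot lies in the middle (-1.13, adjusted p = 0.0201), and Vegfa (-1.20, adjusted p = 0.0263), chosen after their values were seen, passed as lower with the adjustment and not as reported (adjusted p of 0.436 and 0.0989), and Vegfa also passed with the replicate number as a block (-1.32, adjusted p = 0.0211). The adjusted counts of this list were 1 higher and 3 lower, with a median of -0.43. Leaving out 1 array at a time, Saa3 passed only without 1G11-mock replicate 1 or 3 (adjusted p of up to 0.154), and Icam1 and Ccnd1 only without 1G11-mock replicate 1 (up to 0.132 and 0.166). Bcl2l1 passed in no such case (up to 0.127), whereas Birc5 and Serpina3n passed in all. Dimmer probes outside the middle differed by 1.08 and 1.13 for Birc5 (adjusted p of 0.114 and 0.194) and by -1.01 for Bcl2l1 (adjusted p = 0.0502).

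**Figure D4:**
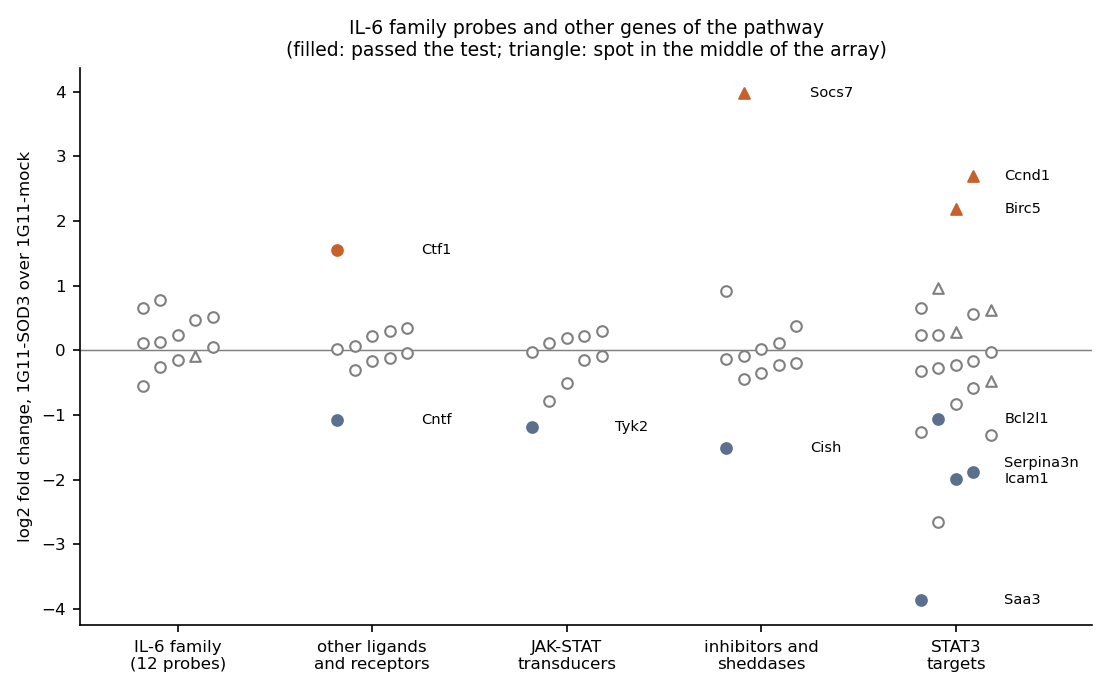
Log2 difference (1G11-SOD3 over 1G11-mock) of the 12 IL-6 family probes and of the 57 other pathway genes in 4 lists, with genes that passed the test filled and named and triangles for spots in the middle of the array. No IL-6 family probe is filled, whereas 4 pathway genes are filled above 0, of which Socs7, Ccnd1 and Birc5 are triangles, and 7 below 0.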

How the data were processed

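RNA from 3 1G11-mock and 3 1G11-SOD3 cultures was labeled with Cy3 and hybridized to Agilent SurePrint Mouse G3 arrays. The authors deposited Feature Extraction 10.7.3.1 output with unnormalized spot intensity and background intensity, and a table of log2 values, normexp corrected (offset 50) and quantile normalized (every array's median 7.52). That table was recomputed to within 0.005 from median intensities with control spots kept, and served as an alternative.

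Values given here are mean spot intensities corrected by normexp on the local background (offset 50), without control spots, in log2 and quantile normalized with limma 3.58.1 (R 4.3.3). Outlier spots were left out and spots of a probe averaged. The lines were compared with lmFit and eBayes, with thresholds of 2-fold and 0.05 for the adjusted p (Benjamini-Hochberg over 55681 probes). On simulated data for this comparison (55592 probes), 200 of 200 probes changed by 3 log2 units either way were recovered with 15 false calls. The simulated noise was equal for all probes and held no position effect. Differences as small as those of the members were not simulated, so their recovery is not known. A fold change was given as a bound, or not at all, where one line had no array well above background. The position surface was a window median (25 rows, 13 columns) over spots that 3 or more arrays had well above background, and lowered the SD of the difference among copies of a probe from 0.708 to 0.227. The number of arrays limits the precision.

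Same-numbered arrays of the 2 lines deviated together from their line means (correlations of 0.165, 0.103 and 0.157, each above 0.1), so the replicate number was tried as a block. Of all probes, 27656 were named through the RefSeq table (28082 in all). The members and lists were chosen with earlier results of these data known, and the named genes are all members, Sod3, every list gene called, and Jak1, Jak2, Tyk2, Stat3, Osm and Il11ra1, to which Ptpn6, Bcl3, Vegfa and markers were added after their values were seen. Under this rule 1 further gene is left unreported and out of the lists. Markers were of endothelial, epithelial, leukocyte and fibroblast or mural cells, and of the epithelial and leukocyte lists 0 genes were called. Alternatives were other background corrections, pixel statistics, scalings, spot and probe filters, a variance trend, the block, the deposited table, place on the array, any probe of a gene, and each array left out. Arrays were left out 1 at a time only from values without position adjustment. Figures were drawn with Python 3.11.15 and matplotlib.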

Additional observations from a re-analysis of the deposited data

How the results depend on the processing

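Over 21 alternative settings, of which the joint use of the processed signal and the filter on dim probes was chosen after seeing the data, 7 member probes kept the sign of their difference and 5 (Il11, Clcf1, Il6ra, Il6st and Osmr) changed it in at least 1, while staying short of the threshold throughout. The count of member probes called higher was 1 (Socs1) in place of 0 with the processed signal, with the position adjustment, and with the processed signal and dim probes left out. The count called lower was 1 (Lif) with the processed signal. Leaving out 1 array, run without position adjustment and not on the processed signal, gave 0 in each case and 3.17 to 5.06 for Sod3. Pathway genes called higher numbered 1 in place of 4 once spots in the middle were left out, and 3 to 4 leaving out 1 array. Pathway genes called lower numbered 3 in place of 7 without background correction and with an offset of 16, 4 with cyclic loess, the position adjustment or a variance trend, and 2 to 6 leaving out 1 array. The cause was not tested. Scaling to the 75th percentile moved the median of all probes to -0.33, and the processed signal to -0.52. Of all probes, 1629 were called as reported, 1056 without background correction, 2598 with 75th percentile scaling, 11118 with the processed signal, 842 with the middle left out, and 775 to 1797 leaving out 1 array. Calls were 1.87% higher and 1.06% lower as reported, and 1.05% of 3.67% were higher with the position adjustment. With the replicate number as a block, 0 member probes were called, 4 pathway genes were higher and 10 lower, and among the named genes it changed the call of Vegfa alone (-1.32, adjusted p = 0.0211). Il6, Lif and 2 Lifr probes were removed by the filter on dim probes, whose signal over background limits what can be said of them.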
